A study of Drosophila melanogaster with 4 samples.

Results

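The Delta-class glutathione S-transferases are a family of cytosolic enzymes of insects and other arthropods. They were taken as the listed genes whose symbol is GstD followed by a number, which gave 9 of the 2049 genes in the deposited table, GstD2 to GstD10. The annotation of the genome holds 11 GstD genes, and the other 2, GstD1 and GstD11, were not analysed here. RNA was measured in S2 cells, an established line from Drosophila embryos with features of macrophages, all of 1 line. The cells spent 4 h in KRB (Krebs Ringer Bicarbonate, labelled STARVATION), a buffered salt solution without amino acids or serum and with more sodium than the growth medium. The other cells spent the same time in Schneider's medium (labelled FED), in which S2 cells grow. Each medium had 2 biological replicates, sequenced as total RNA after removal of ribosomal RNA. The media differ in at least amino acids, serum and sodium at once, and these and any other differences cannot be told apart here.

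Glutathione S-transferases join glutathione, a small peptide with a thiol group, to electrophilic compounds such as products of lipid peroxidation and foreign chemicals, so that these can be exported from the cell. The Delta class, together with the Epsilon class, is known in insects for the breakdown of insecticides. In Drosophila, the transcription factor CncC, held back by Keap1 in unstressed cells, switches on Delta-class genes during oxidative stress, and a GstD reporter is a common readout of this pathway. GstD2 is known in Drosophila to act on isothiocyanates from plants. The comparison of KRB with Schneider's medium asks which stress pathways the starvation buffer sets off.

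The 9 genes lie in 1 cluster on chromosome arm 3R, from 12364776 to 12380815 in the BDGP6 assembly, which has the coordinates of Dm6. GstD10 and GstD9 are on the minus strand and have an intron. GstD2 to GstD8 are on the plus strand in the order of their numbers, and each of these 7 genes has a single exon. GstD1 lies between both groups and GstD11 beyond the right end of the cluster. The exon length was 725 to 876 nt and the coding length 199 to 224 codons, shortest in GstD3 and longest in GstD7. None of the 9 genes overlaps another annotated gene (0 of 9). They are related genes, and the study's methods do not say how reads that fit several copies were counted, so the division of reads among them is uncertain.

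**Figure D1:**
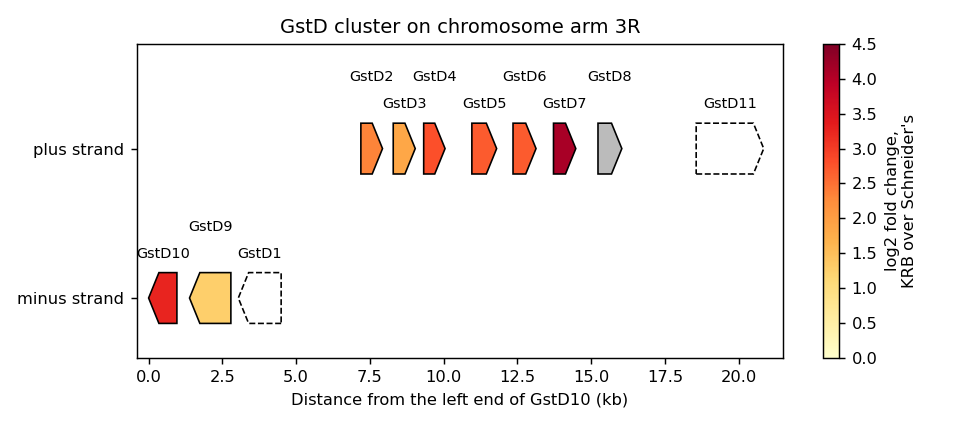
Map of the GstD cluster, with the distance from the left end of GstD10 in kb on the horizontal axis and the strand on the vertical axis; arrows point in the direction of transcription and their colour gives the log2 fold change (KRB over Schneider's). GstD7 has the darkest colour (4.11), GstD9 the lightest (1.28), GstD8 (grey) was not tested, and the dashed genes GstD1 and GstD11 were not analysed here.

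Summed over the table, the libraries held 1957713 and 2801713 reads in KRB and 1108029 and 2414465 in Schneider's medium. The table lists a selection: every gene in it passed a limit on the authors' own fold change and p-value of the same media comparison. A change is therefore not independent evidence for a listed gene. The full depth of the libraries is unknown, and every change below is relative to the other listed RNAs. No measure of RNA per cell enters it, and fewer cells with a transcript cannot be told apart from less of the transcript per cell. Of 9 markers of blood cells, 1 was listed, eater, with 503 and 273 normalized counts in KRB and 1200 and 818 in Schneider's medium. Of the 3 neuron markers, brp alone was listed, with 17 and 10 reads in KRB and 7 and 3 reads in Schneider's medium, and none of the muscle, fat body and ovary markers was. Their part in the results was not tested.

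All 9 GstD genes had more normalized reads in both KRB libraries than in either Schneider's library. Of these, 8 passed the filter on low counts, and 8 of 8 rose in KRB at an adjusted p below 0.05 (edgeR quasi-likelihood F-test, Benjamini-Hochberg over the whole table), where 42.3% of the 1756 tested genes rose and 53.6% fell. GstD10 passed the filter only with its KRB reads. Over the whole table, 42.5% of the tested genes had such a separation of the libraries in the same direction. All 8 calls remained with each library left out in turn (edgeR quasi-likelihood, highest adjusted p = 0.0266 for GstD9). The median log2 fold change was 2.70 for the tested GstD genes and -0.92 for all tested genes. The GstD genes together took 0.284% and 0.339% of the listed reads in KRB, against 0.141% and 0.153% in Schneider's medium. Their summed normalized count (reads divided by the relative library size, from the TMM method of edgeR, which trims extreme genes) was 8583 ± 1513 in KRB and 2049 ± 204 in Schneider's medium (SD, n = 2 each), which is 4.19-fold higher in KRB.

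**Figure D2:**
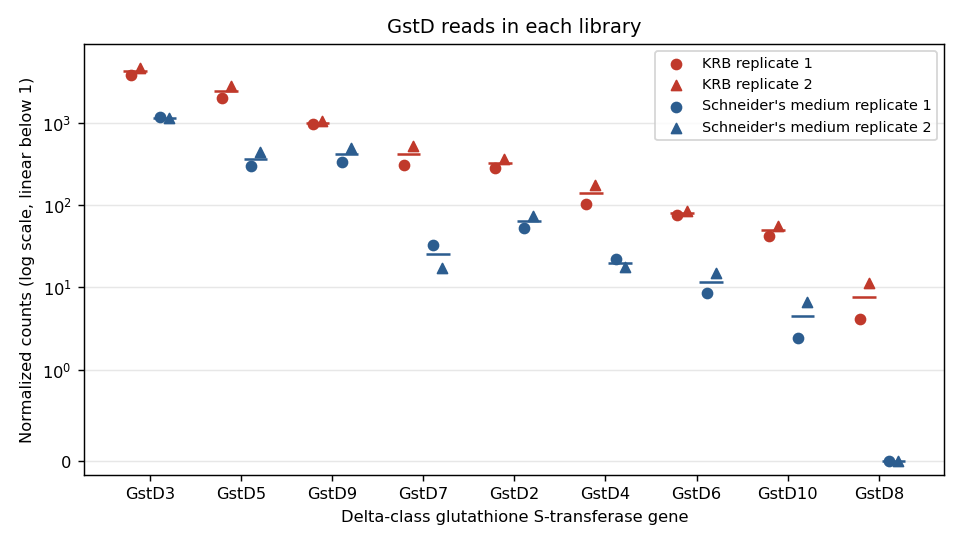
Normalized counts of the 9 GstD genes (horizontal axis) in each library on a log axis that is linear below 1; red is KRB, blue is Schneider's medium, the marker gives the replicate and the line the mean of 2 libraries. The red points lie above the blue points for all 9 genes, and GstD8 has 0 reads in both Schneider's libraries.

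GstD3, GstD5 and GstD9 were the most counted members. GstD3 had 2765 and 4535 reads in KRB, against 948 and 1918 reads in Schneider's medium. Scaled for library size, this was 3741 and 4615 normalized counts in KRB and 1158 and 1141 in Schneider's medium. The Schneider's libraries lay close together (SD 11.96, n = 2), and the lowest KRB library stood 3.23-fold above the highest Schneider's library. GstD3 thus rose by 1.86 on the log2 scale (standard error, SE, 0.17; edgeR quasi-likelihood, adjusted p = 0.000807).

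GstD5 had 1486 and 2732 reads in KRB, against 240 and 737 reads in Schneider's medium. Its normalized count was 2395 ± 544 in KRB and 366 ± 103 in Schneider's medium (SD, n = 2 each). Replicate 2 was the higher one in both media, and the groups did not overlap. The log2 fold change was 2.70 (SE 0.27; edgeR quasi-likelihood, adjusted p = 0.000892).

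GstD9 had 705 and 1029 reads in KRB, against 275 and 814 reads in Schneider's medium. Only after scaling did the groups separate, with 954 and 1047 normalized counts in KRB and 336 and 484 in Schneider's medium. GstD9 rose the least of the tested members, by a log2 fold change of 1.28 (SE 0.21; edgeR quasi-likelihood, adjusted p = 0.00257). This call depended on the scaling of the libraries. With scaling by total counts, which lowered the values of all tested genes by 0.97 log2 in the median, GstD9 had 0.31 (edgeR quasi-likelihood, adjusted p = 0.181), while the other 7 tested GstD genes were still called, where 19.1% of all tested genes rose. Over the total count, upper-quartile, relative log expression and DESeq2 scalings, its log2 fold change ranged from 0.31 to 2.04.

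GstD7 had the largest change of the tested members with all libraries in the fit. It had 223 and 517 reads in KRB, against 27 and 29 reads in Schneider's medium, which was 302 and 526 normalized counts in KRB and 33.0 and 17.2 in Schneider's medium. The Schneider's libraries held about equal reads although replicate 2 was the larger library, and the KRB libraries also differed, so that the fold between single libraries ranged from 9.15 to 30.5. The log2 fold change was 4.11 (SE 0.43; edgeR quasi-likelihood, adjusted p = 0.000892). Without Schneider's replicate 2 it was 3.49, below the 4.10 of GstD10 in the same fit, so the order of these genes rests on that library. Over the other scalings GstD7 ranged from 3.11 to 4.86.

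GstD2, GstD4 and GstD6 were counted less and changed to a similar degree. GstD2 had 210 and 352 reads in KRB, against 43 and 124 reads in Schneider's medium, with a log2 fold change of 2.33 (SE 0.26). For GstD4 there were 75 and 171 reads in KRB and 18 and 30 in Schneider's medium, with a log2 fold change of 2.81 (SE 0.38). GstD6 followed with 55 and 84 reads in KRB and 7 and 25 in Schneider's medium, a log2 fold change of 2.70 (SE 0.37). The normalized counts did not overlap between the media for any of the 3 genes, with 284 and 358 in KRB against 52.5 and 73.8 in Schneider's medium for GstD2. They were 102 and 174 in KRB against 22.0 and 17.8 in Schneider's medium for GstD4, and 74.4 and 85.5 in KRB against 8.55 and 14.9 in Schneider's medium for GstD6. Their log2 fold changes overlap within 1 standard error on each side, and the adjusted p was 0.00104 for GstD2, 0.00154 for GstD4 and 0.00171 for GstD6 (edgeR quasi-likelihood).

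GstD10 and GstD8, at the outer ends of the cluster, had the fewest reads. GstD10 had 31 and 55 reads in KRB, against 2 and 11 reads in Schneider's medium. These were 41.9 and 56.0 normalized counts in KRB and 2.44 and 6.542 in Schneider's medium, so the groups did not overlap. Its log2 fold change was 3.27 (SE 0.48; edgeR quasi-likelihood, adjusted p = 0.00191). GstD10 passed the filter on low counts only with its KRB reads, so its call is not independent of the medium where it is high. The size rests on few Schneider's reads: without Schneider's replicate 2, which held the 11 reads, it was 4.10, and without Schneider's replicate 1 it was 2.73.

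GstD8 had 3 and 11 reads in KRB, against 0 and 0 reads in Schneider's medium. Its counts were too low for the filter, so it was not tested beside the others. Against a floor of 3 reads in each Schneider's library it was at least 2.80-fold higher in KRB, a bound that allows for the counting error of the 0 reads but not for that of the 3 and 11 KRB reads. KRB replicate 2 had 11.2 normalized counts and KRB replicate 1 had 4.06. Without KRB replicate 2 the ratio to this floor was 1.49, from a library that held no more reads than the floor itself. Without the filter on low counts GstD8 was called as well (edgeR quasi-likelihood, adjusted p = 0.0130). With 0 reads in Schneider's medium, GstD8 could not have been called lower. CG10035, which lies 54 nt beyond the end of GstD8 on the other strand, had 11 and 12 reads in KRB, against 1 and 1 in Schneider's medium. The library kit keeps the strand of a read, but the study's methods do not say whether the counting used it, and the part of reads running from one gene into the other was not tested. Of the 16 annotated genes and elements within 20 kb of the cluster, CG10035 was the only one listed besides GstD genes.

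The size of each change moved with the scaling of the libraries, while all tested GstD genes kept values above 0. Over the total count, upper-quartile, relative log expression and DESeq2 scalings, the log2 fold change ranged from 0.88 to 2.60 for GstD3, from 1.73 to 3.47 for GstD5 and from 1.35 to 3.09 for GstD2. It ranged from 1.82 to 3.57 for GstD4, from 1.73 to 3.49 for GstD6 and from 2.31 to 4.12 for GstD10.

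**Figure D3:**
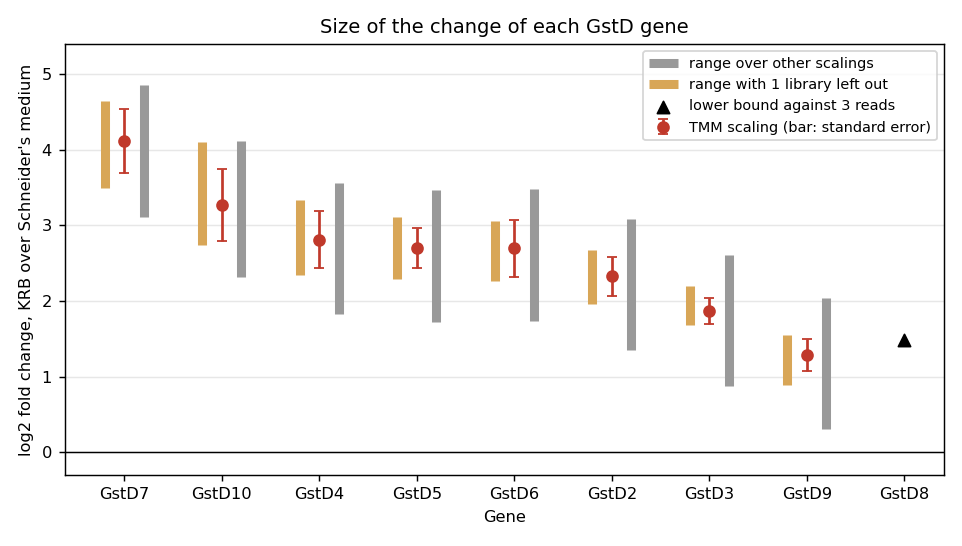
Log2 fold change, KRB over Schneider's, (vertical axis) for each GstD gene (horizontal axis), ordered by size; red points with bars are the TMM-scaled values and their standard errors, yellow bars the range with 1 library left out and grey bars the range over the other scalings. All ranges stay above 0, from GstD7 (4.11) down to GstD9 (1.28), and the triangle is the lower bound of GstD8 (1.49 on the log2 scale).

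The counts of the GstD genes did not all change to the same degree. This can be described without any scaling of the libraries, from the share of each gene in the GstD reads of a library (5553 and 9486 reads in KRB, 1560 and 3688 in Schneider's medium). How reads that fit several of these related genes were counted is not known, so the shares carry that uncertainty. The 3 most counted genes took 89.2% and 87.5% of these reads in KRB, against 93.8% and 94.1% in Schneider's medium. Shares are given with exact Clopper-Pearson 95% intervals, which cover counting error only. GstD7 took 4.02% (3.51% to 4.57%) and 5.45% (5.002% to 5.93%) in KRB, against 1.73% (1.14% to 2.51%) and 0.786% (0.527% to 1.13%) in Schneider's medium. Its intervals did not overlap between the media.

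GstD5 took 26.8% and 28.8% of the GstD reads in KRB, against 15.4% and 19.98% in Schneider's medium. GstD9 went the other way, with 12.7% and 10.8% in KRB, against 17.6% and 22.1% in Schneider's medium. GstD3, the largest share throughout, had 49.8% and 47.8% in KRB, against 60.8% and 52.0% in Schneider's medium. Thus GstD3 and GstD9 had lower shares in both KRB libraries than in either Schneider's library. The other 7 genes had higher shares, although all 9 had more normalized reads in KRB. With 2 libraries per medium such a separation can arise by chance, and its frequency among other genes was not tested. As for GstD7, the intervals of GstD5 and GstD9 did not overlap between the media. Those of GstD2, GstD3, GstD4, GstD6 and GstD10 did overlap. For GstD4 they were 1.06% to 1.69% in KRB replicate 1 and 0.685% to 1.82% in Schneider's replicate 1. For GstD8 the 0 reads in Schneider's medium allow a share of up to 0.192% and 0.0813% (3 reads of the GstD reads), and its KRB shares of 0.0540% and 0.116% do not lie above both limits.

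The shares were compared in an edgeR quasi-likelihood fit whose library sizes were the GstD reads of each library, a choice made after seeing the data. In that fit GstD7 rose by a log2 fold change of 1.98 relative to the GstD reads (SE 0.46; edgeR, adjusted p = 0.00103), and this call remained with each library left out in turn (1.45 to 2.59). GstD5 had 0.65 (SE 0.27; edgeR, adjusted p = 0.0402), GstD10 had 1.26 (SE 0.53; edgeR, adjusted p = 0.0449) and GstD9 had -0.76 (SE 0.27; edgeR, adjusted p = 0.0211). These 3 calls depended on single libraries, although each value kept its direction. The call of GstD5 was lost without any one of the libraries, with values of 0.48 to 0.85. That of GstD10 remained only without Schneider's replicate 2 (2.13, above the 1.45 of GstD7 in the same fit), and its other values were 0.93 to 1.28. That of GstD9 was lost without KRB replicate 2 (-0.65) or without Schneider's replicate 2 (-0.58). GstD2, GstD3, GstD4 and GstD6 did not pass the threshold, with log2 fold changes of 0.28, -0.21, 0.72 and 0.68 and standard errors of 0.38, 0.25, 0.44 and 0.46. In this fit 5.75% of all tested genes were higher and 65.5% were lower, since the sum of the GstD genes was the scale and rose more than the median tested gene. The adjustment ran over all these genes, most of which were called through the choice of scale, so it raised the p-values little. Unadjusted, they were 0.0283 for GstD5, 0.0318 for GstD10 and 0.0144 for GstD9 (edgeR quasi-likelihood). An adjustment over the GstD genes alone was not made, and the calls of these 3 genes may not hold under it.

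**Figure D4:**
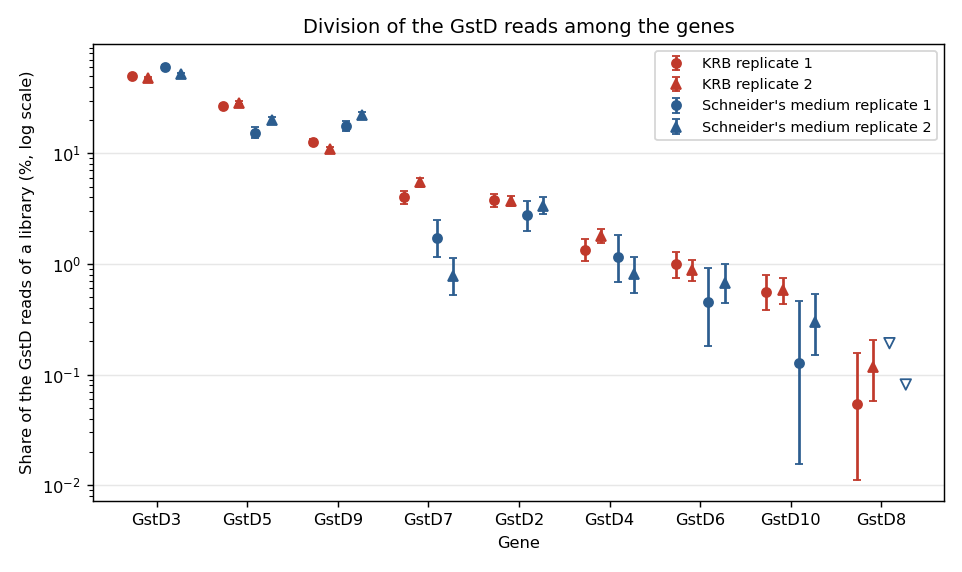
Share of the GstD reads of each library (vertical axis, percent, log scale) taken by each GstD gene (horizontal axis); red is KRB, blue is Schneider's medium, bars are exact 95% binomial intervals and open triangles mark the limit that 0 reads allow. GstD7 shows the widest gap, 4.02% and 5.45% in KRB over 1.73% and 0.786% in Schneider's medium, and GstD9 lies lower in KRB.

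Per kilobase of exon, GstD3 had the highest level in both media, with 5601 normalized counts per kb in KRB and 1540 in Schneider's medium. GstD5 stood in the second place in KRB with 2393 and 3310 per kb, above GstD9 with 1214 and 1332. In Schneider's medium this order was turned round in each library, with 349 and 522 per kb for GstD5 and 427 and 616 for GstD9, although the gap was smaller than that between the libraries. GstD7 and GstD2 also changed places. GstD7 was above GstD2 in each KRB library, with 399 and 696 per kb for GstD7 and 387 and 488 for GstD2, a small gap in replicate 1. In Schneider's medium GstD7 was below GstD2 in each library, with 43.6 and 22.8 per kb against 71.5 and 100.5. Below them the order of levels per kb was GstD4, GstD6, GstD10 and GstD8 in both media. In Schneider's medium, GstD4 (30.3 and 24.6 per kb) was below GstD7 in replicate 1 and above it in replicate 2, and it was above GstD6 in each library (10.96 and 19.1 per kb).

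On both strands the tested members rose. The 6 tested genes on the plus strand had log2 fold changes of 1.86 to 4.11, and GstD10 and GstD9 on the minus strand had 3.27 and 1.28. Neighbours could have unlike values, such as GstD10 and GstD9, or GstD6 (2.70) and GstD7 (4.11). KRB replicate 2 was above KRB replicate 1 for all 9 genes in normalized counts, whereas Schneider's replicate 2 was above replicate 1 for 5 of 9. The 3 genes nearest to GstD3 in their course over the 4 libraries were picked out of 932 other tested genes with a mean of at least 100 reads, as a description. These were CG42588, CR44977 and rost, whose centred log2 normalized counts differed from those of GstD3 by a root mean square of 0.035, 0.040 and 0.062.

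Of 27 other glutathione S-transferases looked for, 14 were listed and tested. Of the 14, 11 rose and 3 fell, with a median log2 fold change of 2.15, where 42.3% of all tested genes rose and 53.6% fell. The GstD genes (median 2.70, 8 of 8 higher) stood beside 6 Epsilon genes (median 2.26, 6 of 6 higher) and 4 Omega genes (median 2.26, 3 higher and 1 lower). Among the called genes, GstD10, GstE4, GstE5 and GstZ2 passed the filter on low counts only with their KRB reads. The ranges of the classes overlap, with 1.28 to 4.11 for Delta and 1.33 to 3.22 for Epsilon, and the difference between the classes was not tested. The highest of the other values were those of GstE4, at 3.22 (SE 0.62), and GstZ2, at 2.93 (SE 0.71). The lowest were GstT3 at -1.45 (SE 0.20) and GstO1 at -0.95 (SE 0.27). Both of the highest rest on few reads, with 22 and 19 in KRB against 4 and 2 in Schneider's medium for GstE4 and 23 and 16 in KRB against 5 and 2 in Schneider's medium for GstZ2. Without Schneider's replicate 2, GstE4 had 2.12 and GstZ2 had 1.75, and without Schneider's replicate 1 they had 4.07 and 4.01. The call of GstZ2 was lost without Schneider's replicate 2 or KRB replicate 1, and those of GstO1 and GstZ1 without either KRB replicate. The calls of GstO1 and GstZ1 were lost with upper-quartile and relative log expression factors and with DESeq2, that of GstT3 with DESeq2, and those of GstE2, GstE8 and GstZ2 with total counts. All 14 kept their direction under each of these scalings.

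**Figure D5:**
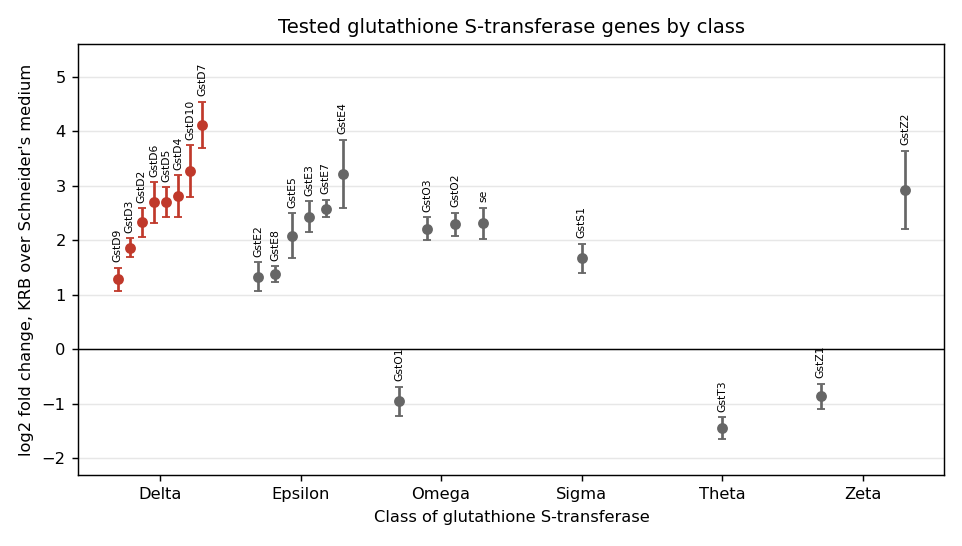
Log2 fold change, KRB over Schneider's, (vertical axis) with its standard error for each tested glutathione S-transferase gene, by class (horizontal axis); the Delta class is red. The 8 Delta genes lie between 1.28 and 4.11 and overlap the 6 Epsilon genes, and GstO1, GstT3 and GstZ1 lie below 0.

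Other genes of the glutathione pathway were described only as far as they were listed, and the number listed or called in each group is not read as a result. Over the whole table, 42.3% of the 1756 tested genes rose and 53.6% fell. Of 10 genes for the synthesis and turnover of glutathione, 2 were listed. Gclc, the catalytic subunit of the enzyme that limits glutathione synthesis, had 7368 and 8801 normalized counts in KRB, against 2612 and 1784 in Schneider's medium. It rose by a log2 fold change of 1.88 (SE 0.23). CG1492 fell by 0.85 on the log2 scale (SE 0.22), a call lost with upper-quartile and relative log expression factors, with DESeq2 and without KRB replicate 1. Of 5 ABC exporters, which pump conjugates and other compounds out of cells, MRP and Mrp4 were listed and rose, by 1.47 (SE 0.21) and 1.55 (SE 0.15).

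Among 10 stress-responsive regulators, 2 were listed, Jra and kay, the Drosophila Jun and Fos, which pair as the AP-1 transcription factor. Jra rose by a log2 fold change of 1.41 (SE 0.16), where 42.3% of all tested genes rose. For kay the value was 1.24 (SE 0.26), and its call was lost with total counts, where it had 0.25. The transcription factor gene cnc and Keap1 were looked for and were not analysed here. Of 20 genes for enzymes that act on peroxide, superoxide and disulfides, 3 were listed, the peroxiredoxins Prx2540-1, Prx2540-2 and CG12896. All 3 fell, where 53.6% of all tested genes fell. Prx2540-1 had 17.6 and 16.3 normalized counts in KRB, against 641 and 1074 in Schneider's medium. The log2 fold changes were -5.66, -5.24 and -5.44 (standard errors 0.36, 0.35 and 0.77). CG12896 had 4 and 0 reads in KRB, against 75 and 208 in Schneider's medium, and without KRB replicate 2, the library with 0 reads, its value was -4.30. CG12896 passed the filter on low counts only with its Schneider's reads, so its call is not independent of the medium where it is high. The 3 genes are near copies of each other, so the division of reads among them is uncertain.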

How the data were processed

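The authors aligned reads of 75 bases with STAR 2.4.0.1 (Dm6), tallied reads by transcript in Python and ran edgeR 3.24.3. The authors deposited raw read counts per gene symbol, without normalization, together with their own log2 fold change and p-value, which were not used as results here. The members, gene lists and tests were chosen with earlier results of these data known.

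The test used edgeR 4.0.16 (R 4.3.3): filterByExpr at its defaults, TMM scaling, and the quasi-likelihood F-test (two-sided, medium as the only term) over the whole table, with Benjamini-Hochberg adjustment. A normalized count is a read count divided by the TMM-scaled size of its library, with sizes set to a geometric mean of 1. The SE is the absolute log2 fold change divided by the square root of F. An exact permutation of 2 against 2 libraries cannot give a p below 0.333. Alternatives were the edgeR exact test, DESeq2 1.42.0, other scalings, filters and thresholds, a replicate block and each library left out; an arm with 1 library was then assumed to vary like the other. The model scripts were tested on simulated counts.

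Every GstD gene was named. In other lists all listed genes were named where there were 5 or fewer, and otherwise the 2 highest and 2 lowest called genes. Listed genes within 20 kb of the cluster and the 3 genes nearest to the most counted member (on log2 of normalized counts plus 0.5) were also named, and genes that lost a call were named after their values were seen. Gene positions and exon lengths came from the Ensembl annotation, release 115 (BDGP6), to which 1695 listed symbols matched directly and 341 by synonym. No sequences were used here. Summaries used Python 3.11.15, scipy 1.17.1, pandas 2.3.3, matplotlib 3.10.9 and numpy 2.4.6.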

Additional observations from a re-analysis of the deposited data

How the results depend on the processing

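The 8 tested GstD genes were called higher under each alternative except total counts, with 7 genes (without GstD9), and without the filter GstD8 made 9. Of 96 log2 fold changes of single GstD genes under alternatives, none changed direction and 95 kept the call. Over all listed genes, total counts gave 335 higher genes against 742, and the lower genes numbered 547 with upper-quartile factors, 178 with those of relative log expression and 89 under DESeq2, against 942. These settings shifted all log2 fold changes by -0.97, 0.46, 0.74 and 0.74 in the median. With each library left out in turn, 530 to 938 genes were lower, the fewest without KRB replicate 1, and 650 to 781 were higher. The KRB minus Schneider's share of GstD3 was -7.59 percentage points and lay between -11.97 and -3.21 when single libraries were left out. With a replicate block 751 genes were higher and 1004 lower, and it changed no call of a GstD gene. In the fit on the GstD reads, GstD5, GstD10 and GstD9 were also called with the block (edgeR, adjusted p = 0.00304, 0.0223 and 0.00144). These values are not read as support, since the block leaves very little from which to estimate the spread. In the fit over all listed genes, the adjusted p of GstD7 was 2.93e-37 with the block and 0.000892 without it (edgeR quasi-likelihood). Libraries with the same replicate number, for which no source names a shared batch, had deviations from the mean of their medium correlated at 0.298 over the tested genes. With 2 libraries per medium, both pairs give the same value by construction. Few reads limit GstD8 and GstD10, and the scaling rests on listed genes alone.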
